A study of Mus musculus with 18 samples.

Results

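Acaca, Akr1b10, Atp5md, Selenoh and Macrod2 are 5 mouse genes of metabolism and redox chemistry. They are described here from 6 of the 80520 non-control probes of a custom Agilent expression array. These probes have names that start with Mm_ncRNA and carry a RefSeq mRNA accession of one of the genes. Only probes with that start of the name were looked up, so whether other probes of the array read these genes was not examined. The 5 genes are among the 68 that could be named and tested in this way, on an array on which 41082 features passed the filter on dim signal. Acaca makes acetyl-CoA carboxylase alpha, which turns acetyl-CoA into malonyl-CoA and so commits carbon to fatty acid synthesis. Akr1b10 makes an aldo-keto reductase, one of the enzymes that reduce aldehydes and ketones to alcohols with NADPH. Atp5md makes a small membrane subunit of the mitochondrial ATP synthase, which makes ATP from the proton gradient of respiration. Selenoh makes selenoprotein H, a selenocysteine-containing redox protein of the nucleolus with a thioredoxin-like fold, and Macrod2 makes a macrodomain enzyme that removes mono-ADP-ribose from proteins. The 5 genes are not one pathway, and each is described on its own below.

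The RNA came from 3 lines of murine triple-negative breast cancer, which the labels name metM-Wnt, M-Wnt and E-Wnt. The labels give a mammary tumor as the tissue of E-Wnt and M-Wnt and a liver metastasis as that of metM-Wnt. Cells of the control groups grew for 72 h in RPMI 1640 with 2.2 µM folic acid and regular fetal bovine serum, and those of the withdrawal groups in RPMI 1640 with 0 µM folic acid and dialyzed serum, so that serum type and folic acid changed together and their parts cannot be told apart. Folic acid is the vitamin from which cells build the folates that carry single carbon units for nucleotide, methionine and glycine metabolism. Each of the 6 groups had 3 arrays, 18 in all, which the submitters describe as biological replicates. Every array paired Cy5-labelled cRNA of a sample with Cy3-labelled cRNA of NIH3T3 cells, a mouse fibroblast line used as common reference, with the same dye orientation throughout. All values below are log2 ratios of sample over that reference, normalized within each array, unless another unit is named. A value of 0 is the array's own trend for spots of that brightness, and a positive value lies above that trend. The sign need not be that of the raw signals. On the first E-Wnt control array Atp5md read -0.32, with raw signals of 181700 for the sample and 123700 for the reference. Above or below the reference is meant in this normalized sense. Each line name stands for 1 cell line, so a difference between lines is a difference between these lines and not between kinds of tumor. Because these are bulk RNA samples, fewer cells of a type and less RNA per cell cannot be told apart. None of the 36 epithelial, mesenchymal, fibroblast, liver and immune marker genes considered had a named probe here, so the lines' labels were not checked against markers.

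The 5 genes were chosen by their measured log2 ratios: by the control-medium difference between M-Wnt and E-Wnt and, for some, by the response of M-Wnt to withdrawal. Those comparisons, and the differences in response that contain the latter, are therefore given as descriptions with no test. The other 8 comparisons were tested with limma across all 41082 features with Benjamini-Hochberg adjustment over all of them, and a gene is called where its adjusted p is below 0.05. Some tested comparisons share arrays with the ones used for the choice. The E-Wnt control arrays serve in metM-Wnt against E-Wnt in control medium, in withdrawal in E-Wnt and in the response of metM-Wnt minus that of E-Wnt. The M-Wnt control arrays serve in metM-Wnt against M-Wnt with folic acid. The comparisons of M-Wnt with either other line without folic acid use the M-Wnt withdrawal arrays.

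The probe sequences show which stretch of each mRNA was read. They come from the array files, 5′ to 3′. In 7078 of 7081 pairs of probes of one accession whose ID numbers imply an overlap, the sequences overlapped at that offset in the printed direction, so the number in a probe's ID was read as the position of its first base on the accession. For Acaca and Akr1b10 the capitals mark the longest run that the probe shares with a probe of any other ID on the array, for Atp5md the first ATG of the probe, and the stretches of Selenoh and Macrod2 are given because 1 is common to both Selenoh probes and the other opens the Macrod2 probe.
Acaca: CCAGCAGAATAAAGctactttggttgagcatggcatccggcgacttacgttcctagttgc
Akr1b10: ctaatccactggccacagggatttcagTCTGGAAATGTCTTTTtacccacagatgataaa
Atp5md: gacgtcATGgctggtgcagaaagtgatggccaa
Selenoh: gggaaagagtcctcatgttgagctttcagt
Macrod2: ccttgcctgagacggttatggaaagaaagt

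The 60-base Acaca probe starts at base 3932 of its accession and the 60-base Akr1b10 probe at base 419. Their longest runs in common with another probe are 14 and 16 bases. The Atp5md probe starts at base 29, and the 33 bases printed are its end from probe base 28 on. Its first ATG lies at probe base 34 and opens 9 codons without a stop before the probe ends, so this probe lies at the 5′ end of the mRNA. The Macrod2 probe starts at base 465. Selenoh had 2 probes, of 60 and 45 bases, starting at bases 474 and 480, and the shorter one lies wholly inside the longer one, so they are not independent readings of the mRNA. The GC content of the 6 probes ran from 41.7% for Akr1b10 to 55.0% for Atp5md. No other probe of the array shared 20 bases with any of the 6 on either strand.

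The mean signal per array ran from 1964 to 6649 in the sample channel and from 3371 to 4618 in the reference channel, and 40.9% to 53.7% of probes were well above background in the sample channel. The arrays lay on 5 slides: E-Wnt and M-Wnt arrays met only on slide 2, and the metM-Wnt arrays lay on slides 4 and 5 with no other line, so slide and line cannot be told apart in any metM-Wnt comparison with another line. In each line 1 slide holds both media, but with a single array of one of them: 3 control arrays and 1 withdrawal array for E-Wnt and for metM-Wnt, and 1 control array and 3 withdrawal arrays for M-Wnt. A value within a slide is therefore 1 array against the mean of 3, and it is given below with no test. The third E-Wnt withdrawal array stood furthest from its group, with an SD of 0.379 over all features in its deviations from the group mean, against 0.0994 to 0.252 in the other 17 arrays. The third M-Wnt withdrawal array had the lowest sample signal of all, 1964. All 6 probes were well above background on all 18 arrays, and none of their spots was saturated or an outlier. Their brightness differed widely: the sample signal of Atp5md lay between 37060 and 248600, while that of Acaca lay between 118.2 and 230.2 against a background of 53.5 to 71.5. The 2 spots of a probe on an array differed by a median of 0.03 to 0.13, and at most by 0.47, for Macrod2.

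**Figure D1:**
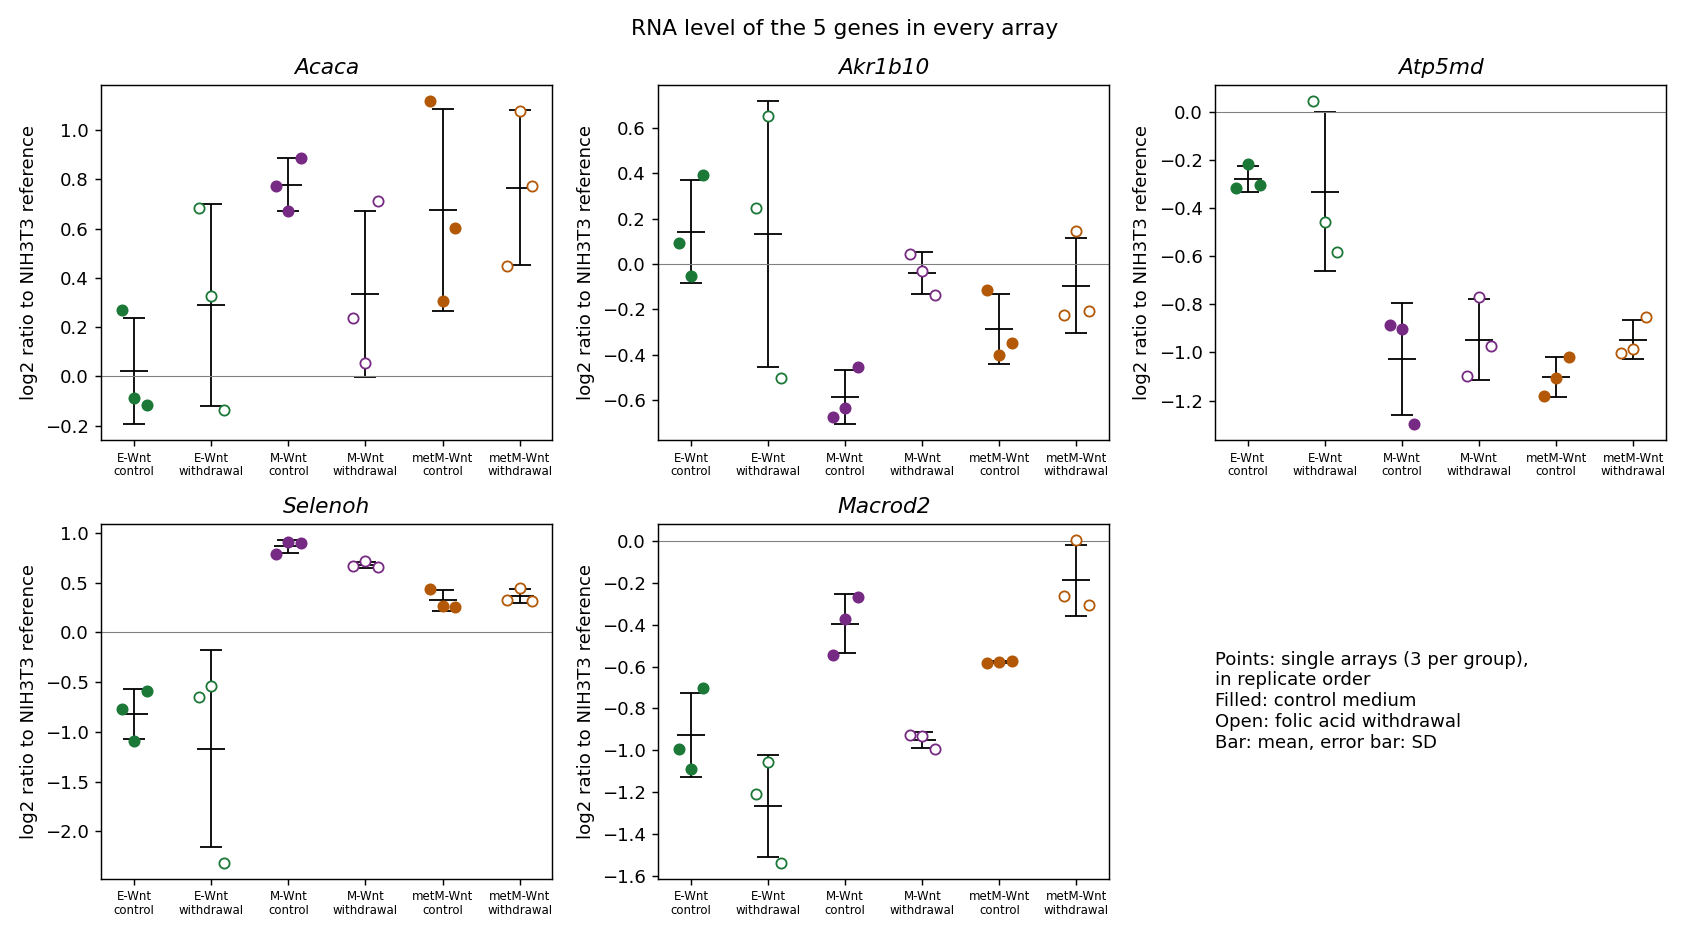
Log2 ratio of sample to NIH3T3 reference (y axis) of each gene on each of the 18 arrays, by line and medium (x axis), with the y axis scaled separately in each panel. Points are arrays, bars are group means and error bars are SD over 3 arrays. Selenoh is above 0 on all M-Wnt and metM-Wnt arrays and below 0 on all E-Wnt arrays, with 1 E-Wnt withdrawal array at -2.31.

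Selenoh had the widest range of the 5, with group means that spanned 2.04. In E-Wnt control cells the 3 arrays read -0.77, -1.09 and -0.59, and in E-Wnt cells without folic acid -0.65, -0.54 and -2.31. In M-Wnt control cells they read 0.79, 0.91 and 0.90, and in M-Wnt cells without folic acid 0.67, 0.72 and 0.65. After normalization all E-Wnt arrays thus lay below the reference and all M-Wnt arrays above it. This did not hold for the raw signals of every array. The longer Selenoh probe gave 93960 against 51160 in the reference channel on the third E-Wnt control array. On the third M-Wnt withdrawal array it gave 48520 against 62300. In metM-Wnt cells the arrays read 0.44, 0.27 and 0.26 in control medium and 0.33, 0.45 and 0.32 without folic acid, between the other 2 lines. The groups ran in order from M-Wnt control (0.87) over M-Wnt withdrawal (0.68), metM-Wnt withdrawal (0.36), metM-Wnt control (0.32) and E-Wnt control (-0.82) to E-Wnt withdrawal (-1.17). The arrays of neighbouring groups overlapped only between the 2 metM-Wnt groups and between the 2 E-Wnt groups.

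Selenoh was higher in M-Wnt and metM-Wnt than in E-Wnt in each of the 3 tested line comparisons. Without folic acid it was 3.6-fold higher in M-Wnt than in E-Wnt (log2 difference 1.85, SE 0.31, 95% interval 1.20 to 2.50, limma adjusted p = 0.00011). It was 2.2-fold higher in metM-Wnt than in E-Wnt in control medium (1.14, interval 0.49 to 1.79, limma adjusted p = 0.0062) and 2.89-fold higher without folic acid (1.53, interval 0.88 to 2.19, limma adjusted p = 0.00065). The described difference of M-Wnt from E-Wnt in control medium was 1.68 (SE 0.31), a 3.21-fold higher level, and 2.44 with slide as a fixed term. Without the third E-Wnt withdrawal array, the differences without folic acid were 1.28 for M-Wnt (limma adjusted p = 4.5e-07) and 0.96 for metM-Wnt (limma adjusted p = 1.1e-05). With each array centred on its median in place of loess, all 3 tested calls were lost at 1.25, 0.92 and 0.94 (limma adjusted p = 0.059, 0.19 and 0.14).

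Between metM-Wnt and M-Wnt, Selenoh was not called. In control medium all 3 metM-Wnt arrays lay below all 3 M-Wnt arrays, with a difference between means of -0.54 (interval -1.20 to 0.11, limma adjusted p = 0.33). Without the third E-Wnt withdrawal array, which raises the estimate of spread for Selenoh although it belongs to neither group, the same difference of -0.54 was called (limma adjusted p = 0.0044). Without folic acid the difference was -0.32 (interval -0.97 to 0.34, limma adjusted p = 0.59). Withdrawal minus control was -0.35 for Selenoh in E-Wnt (interval -1.00 to 0.30, limma adjusted p = 0.83) and 0.04 in metM-Wnt (interval -0.61 to 0.70, limma adjusted p = 0.98), and neither was called. Without the third E-Wnt withdrawal array the E-Wnt value was 0.22, and the 1 withdrawal array on the slide of the control arrays lay 0.17 above their mean. The described M-Wnt value was -0.19 (SE 0.31), with the withdrawal arrays all below the control arrays, and -0.98 with median centring.

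Both Selenoh probes gave the same picture, with a Pearson correlation of 0.994 over the 18 arrays, which share their hybridisations. The reading of the 60-base probe minus that of the 45-base probe it contains ran from -0.08 to 0.29. On the third E-Wnt withdrawal array the 2 probes read -2.32 and -2.30. The sample signal of the 45-base probe there was 9326, against 42980 and 46760 on the other E-Wnt withdrawal arrays, and that of the 60-base probe 17470 against 68720 and 86120. The low ratio is therefore seen in both probes and in the sample channel, and its cause was not tested.

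**Figure D2:**
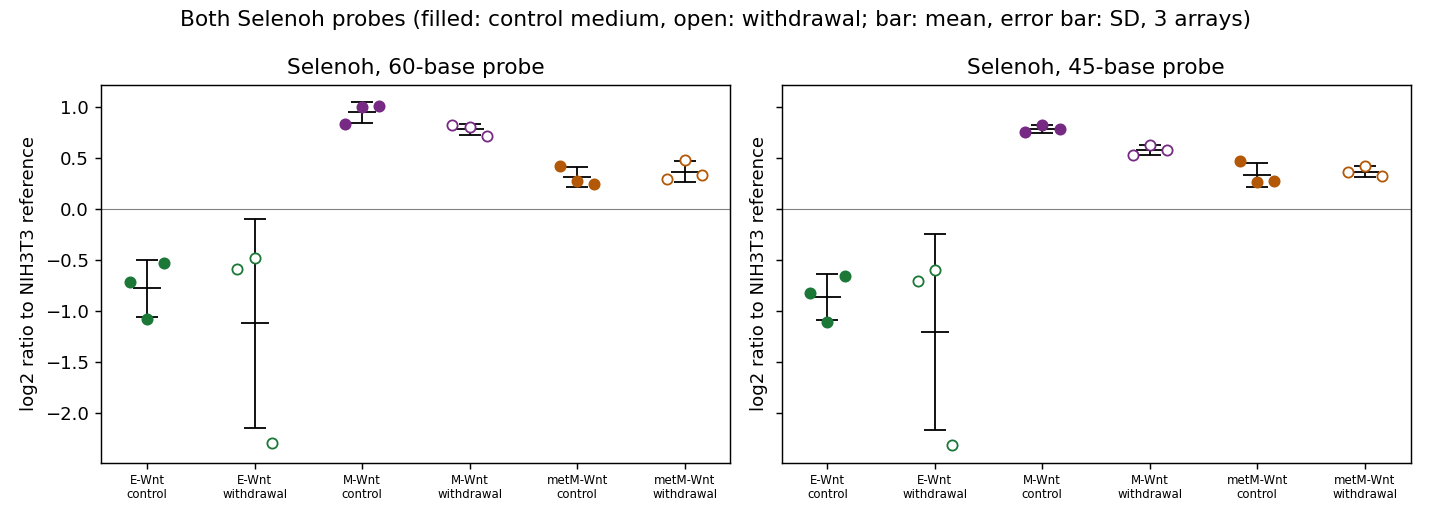
Log2 ratio of sample to NIH3T3 reference (y axis) by line and medium (x axis) for the 60-base and the 45-base Selenoh probe. Points are arrays, bars are means and error bars SD over 3 arrays; the third E-Wnt withdrawal array is low with both probes, near -2.3.

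Atp5md was lower in M-Wnt and metM-Wnt than in E-Wnt in both media. E-Wnt control arrays read -0.32, -0.22 and -0.30, and E-Wnt withdrawal arrays 0.04, -0.46 and -0.58. M-Wnt arrays read -0.88, -0.90 and -1.30 in control medium and -1.10, -0.77 and -0.97 without folic acid. metM-Wnt arrays read -1.18, -1.11 and -1.02 in control medium and -1.00, -0.98 and -0.85 without folic acid. All 6 E-Wnt arrays lay above all 12 arrays of the other 2 lines, and the only gap between neighbouring groups whose arrays did not overlap was that of 0.61 between E-Wnt withdrawal and M-Wnt withdrawal. The spread within groups was moderate, with a residual SD of 0.186 against a median of 0.193 over all features, and 82.9% of the gene's variation over the arrays lay between groups, against a median of 66.2% over all features.

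Without folic acid Atp5md was 1.53-fold lower in M-Wnt than in E-Wnt (-0.61, SE 0.15, interval -0.93 to -0.30, limma adjusted p = 0.0032). metM-Wnt was 1.77-fold lower than E-Wnt in control medium (-0.82, interval -1.14 to -0.50, limma adjusted p = 0.00027) and lower by a like difference of -0.62 without folic acid (interval -0.94 to -0.30, limma adjusted p = 0.0032). The described difference of M-Wnt from E-Wnt in control medium was -0.75 (SE 0.15), 1.68-fold lower. With slide as a term, the difference between M-Wnt and E-Wnt was -0.02 without folic acid (limma adjusted p = 0.95) and -0.05 in control medium, so that the M-Wnt call was lost. On slide 2, which holds both lines but in different media, the 2 E-Wnt withdrawal arrays read -0.46 and -0.58 and the 2 M-Wnt control arrays -0.88 and -0.90. The fit with slide joins the 2 lines only through these arrays. Its value without folic acid then rests on the single M-Wnt control array of slide 3, which read -1.30. Its value in control medium rests on the single E-Wnt withdrawal array of slide 1, which read 0.04. The calls of metM-Wnt against E-Wnt held under every alternative run, none of which could separate slide and line as fixed terms there.

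M-Wnt and metM-Wnt did not differ detectably in Atp5md. The difference was -0.07 in control medium (interval -0.39 to 0.24, limma adjusted p = 0.82), and without folic acid the interval was -0.32 to 0.32 (limma adjusted p = 1). These intervals bound the differences that the arrays leave room for. Withdrawal gave -0.05 in E-Wnt (interval -0.37 to 0.27, limma adjusted p = 0.97) and 0.15 in metM-Wnt (interval -0.17 to 0.47, limma adjusted p = 0.73), the latter with all 3 withdrawal arrays above all 3 control arrays. The described M-Wnt value was 0.08 (SE 0.15). It was 0.35 within the slide that holds both M-Wnt media, where the only control array is the lowest of its group, and -0.74 with median centring.

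Macrod2 lay below the reference in all 6 group means, and its highest array read 0.00 after rounding. E-Wnt arrays read -0.99, -1.09 and -0.70 in control medium and -1.21, -1.06 and -1.54 without folic acid. M-Wnt arrays read -0.55, -0.37 and -0.27 in control medium and -0.93, -0.93 and -0.99 without folic acid, so that the 2 M-Wnt groups did not overlap and the withdrawal group was the lower. metM-Wnt arrays read -0.58, -0.58 and -0.57 in control medium and -0.26, 0.00 and -0.31 without folic acid, with no overlap and the withdrawal group the higher. The groups ran from metM-Wnt withdrawal (-0.19) over M-Wnt control (-0.40), metM-Wnt control (-0.58), E-Wnt control (-0.93) and M-Wnt withdrawal (-0.95) to E-Wnt withdrawal (-1.27). In that order the first pair of neighbours overlapped, as did E-Wnt control and M-Wnt withdrawal, and the other neighbours did not. Macrod2 had the smallest spread within groups of the 5, a residual SD of 0.158, with 88.9% of its variation between groups.

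Without folic acid Macrod2 was 2.11-fold higher in metM-Wnt than in E-Wnt (1.08, SE 0.13, interval 0.79 to 1.36, limma adjusted p = 5.2e-06) and 1.7-fold higher than in M-Wnt (0.76, interval 0.48 to 1.05, limma adjusted p = 0.0019). The latter comparison uses the M-Wnt withdrawal arrays, on which the gene was partly chosen. With median centring both calls were lost, at 0.48 (limma adjusted p = 0.21) and 0.78 (limma adjusted p = 0.34). In control medium metM-Wnt was 1.27-fold higher than E-Wnt (0.35, interval 0.07 to 0.63, limma adjusted p = 0.044), a call lost in 16 of 30 alternatives. Over all 30 the difference ran from 0.13 to 0.57. The call was lost, among others, on leaving out the first or second E-Wnt control array (0.32 and 0.27, limma adjusted p = 0.12 and 0.15) and any of the 3 metM-Wnt control arrays, each of which left it at 0.35 (limma adjusted p = 0.082, 0.087 and 0.087). The difference between metM-Wnt and M-Wnt in control medium was -0.18 (interval -0.47 to 0.10, limma adjusted p = 0.47), and that of M-Wnt from E-Wnt without folic acid 0.31 (interval 0.03 to 0.60, limma adjusted p = 0.067), neither of which was called. The latter passed in 3 alternatives: with the red channel alone (0.32, limma adjusted p = 0.047), with slide as a random block (0.35, limma adjusted p = 0.013) and without the second E-Wnt withdrawal array (0.42, limma adjusted p = 0.028).

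The withdrawal differences of Macrod2 were negative in E-Wnt and M-Wnt and positive in metM-Wnt, and neither of the 2 tested ones passed the adjustment. In E-Wnt the difference was -0.34 (interval -0.62 to -0.05, limma adjusted p = 0.53), with overlapping arrays. In metM-Wnt it was 0.39 (interval 0.11 to 0.67, limma adjusted p = 0.21), and the 1 withdrawal array on the slide of the metM-Wnt control arrays lay 0.31 above their mean. The response of metM-Wnt minus that of E-Wnt was 0.73 (SE 0.19, interval 0.33 to 1.13, limma adjusted p = 0.13). It was 0.77 with slide as a random block, where it passed (limma adjusted p = 0.047). The described M-Wnt response was -0.56 (SE 0.13), 1.47-fold lower without folic acid, and -0.68 within the slide that holds both M-Wnt media, where the only control array is the highest of its group. With median centring it was -1.10. The described response of metM-Wnt minus that of M-Wnt was 0.95 (SE 0.19).

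The Macrod2 probe was dimmer in the sample channel than in the reference channel, where it gave 1337 to 2124. Its sample signal was 1151, 1155 and 1027 in M-Wnt control cells and 691.9, 606.6 and 319.2 in M-Wnt cells without folic acid. Over all probes the mean sample signal was also lower without folic acid, at 3722, 3418 and 1964 against 5134, 5170 and 4213 in control medium, so the size of the M-Wnt difference rests on how arrays are scaled to each other. In metM-Wnt the sample signal was 705.1, 797.4 and 820.6 in control medium and 543.8, 755.3 and 814.3 without folic acid, and the 2 groups overlapped before normalization.

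Acaca had its lowest group mean in E-Wnt control cells, and all M-Wnt and metM-Wnt arrays lay above the reference after normalization. E-Wnt arrays read 0.27, -0.09 and -0.11 in control medium and 0.68, 0.33 and -0.14 without folic acid. M-Wnt arrays read 0.77, 0.67 and 0.89 in control medium and 0.24, 0.05 and 0.71 without folic acid. metM-Wnt arrays read 1.12, 0.31 and 0.60 in control medium and 0.45, 1.08 and 0.77 without folic acid. In the order from M-Wnt control (0.78) over metM-Wnt withdrawal (0.77), metM-Wnt control (0.67), M-Wnt withdrawal (0.33) and E-Wnt withdrawal (0.29) to E-Wnt control (0.02), the arrays of all neighbouring groups overlapped. This was also the dimmest of the probes, and its residual SD of 0.319 was higher than that of 85.5% of features.

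Acaca was 1.57-fold higher in metM-Wnt than in E-Wnt in control medium (0.65, SE 0.24, interval 0.15 to 1.16, limma adjusted p = 0.035). This call was lost in 8 of 30 alternatives, over which the difference ran from 0.39 to 0.95. Leaving out the first metM-Wnt control array gave 0.43 (limma adjusted p = 0.17) and leaving out replicate 3 of that group 0.69 (limma adjusted p = 0.056). Leaving out replicate 2 or replicate 3 of E-Wnt control gave 0.60 and 0.58 (limma adjusted p = 0.09 and 0.11). Before normalization the sample signal of Acaca was 230.2, 129.2 and 136.4 in metM-Wnt control and 164.9, 130.1 and 178.3 in E-Wnt control, which overlap. Without folic acid metM-Wnt differed from E-Wnt by 0.48 (interval -0.03 to 0.98, limma adjusted p = 0.12) and from M-Wnt by 0.43 (interval -0.07 to 0.94, limma adjusted p = 0.3), and M-Wnt from E-Wnt by 0.04 (interval -0.46 to 0.55, limma adjusted p = 0.9). In control medium metM-Wnt differed from M-Wnt by -0.10 (interval -0.61 to 0.40, limma adjusted p = 0.85). None of these 4 was called. The difference from E-Wnt without folic acid passed with the red channel alone (0.66, limma adjusted p = 0.021) and without the first E-Wnt withdrawal array (0.67, limma adjusted p = 0.042), and that from M-Wnt with array weights (0.55, limma adjusted p = 0.018).

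Withdrawal gave an Acaca difference of 0.27 in E-Wnt (interval -0.24 to 0.77, limma adjusted p = 0.83) and of 0.09 in metM-Wnt (interval -0.41 to 0.60, limma adjusted p = 0.92). Within the slides that hold both media, with 1 withdrawal array each, these values were 0.66 and -0.23. The described values were 0.76 (SE 0.24), or 1.69-fold higher, for M-Wnt relative to E-Wnt with folic acid and -0.44 (SE 0.24) for withdrawal in M-Wnt. The former was 1.18 with Agilent's processed signals, 1.19 in the series table and 1.29 with slide as a fixed term. The response of M-Wnt minus that of E-Wnt was described by -0.71 (SE 0.34), and was -1.07 in the series table and -1.21 with slide as a fixed term.

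Akr1b10 lay near the reference in E-Wnt and lowest in M-Wnt control cells. E-Wnt arrays read 0.09, -0.05 and 0.39 in control medium and 0.25, 0.65 and -0.50 without folic acid. M-Wnt arrays read -0.67, -0.63 and -0.45 in control medium and 0.05, -0.03 and -0.14 without folic acid, so that in this line the withdrawal arrays lay above the control arrays. metM-Wnt arrays read -0.11, -0.40 and -0.35 in control medium and -0.22, 0.14 and -0.21 without folic acid. In the order of groups from E-Wnt control (0.14) down to M-Wnt control (-0.59), only M-Wnt control lay apart from its neighbour, metM-Wnt control (-0.29). The residual SD of 0.284 was higher than that of 79.5% of features.

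Akr1b10 was called in none of the 8 tested comparisons. The largest tested difference was that of metM-Wnt from E-Wnt in control medium, -0.43, with all metM-Wnt arrays below all E-Wnt arrays (interval -0.88 to 0.02, limma adjusted p = 0.12). Without folic acid the differences from E-Wnt were -0.17 for M-Wnt (interval -0.63 to 0.28, limma adjusted p = 0.53) and -0.23 for metM-Wnt (interval -0.68 to 0.23, limma adjusted p = 0.42). Without the third E-Wnt withdrawal array these 3 differences were -0.43, -0.49 and -0.55, and each was called (limma adjusted p = 0.022, 0.019 and 0.012). With array weights they were -0.46, -0.39 and -0.49, and each was called too (limma adjusted p = 0.017, 0.035 and 0.025). The red channel alone gave calls for metM-Wnt against E-Wnt in control medium (-0.50, limma adjusted p = 0.027) and without folic acid (-0.46, limma adjusted p = 0.042). Slide as a random block gave the former too (-0.47, limma adjusted p = 0.025). In the order given, the 3 were not called in 26 of 30, 29 of 31 and 27 of 30 alternatives. Between metM-Wnt and M-Wnt the differences were 0.30 in control medium (interval -0.15 to 0.75, limma adjusted p = 0.46) and -0.05 without folic acid (interval -0.51 to 0.40, limma adjusted p = 0.91). Withdrawal gave -0.01 in E-Wnt (interval -0.46 to 0.44, limma adjusted p = 0.99) and 0.19 in metM-Wnt (interval -0.26 to 0.64, limma adjusted p = 0.78). The described values were -0.73 (SE 0.21), or 1.66-fold lower, for M-Wnt relative to E-Wnt with folic acid and 0.55 (SE 0.21) for withdrawal in M-Wnt, the latter 0.11 with median centring.

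**Figure D3:**
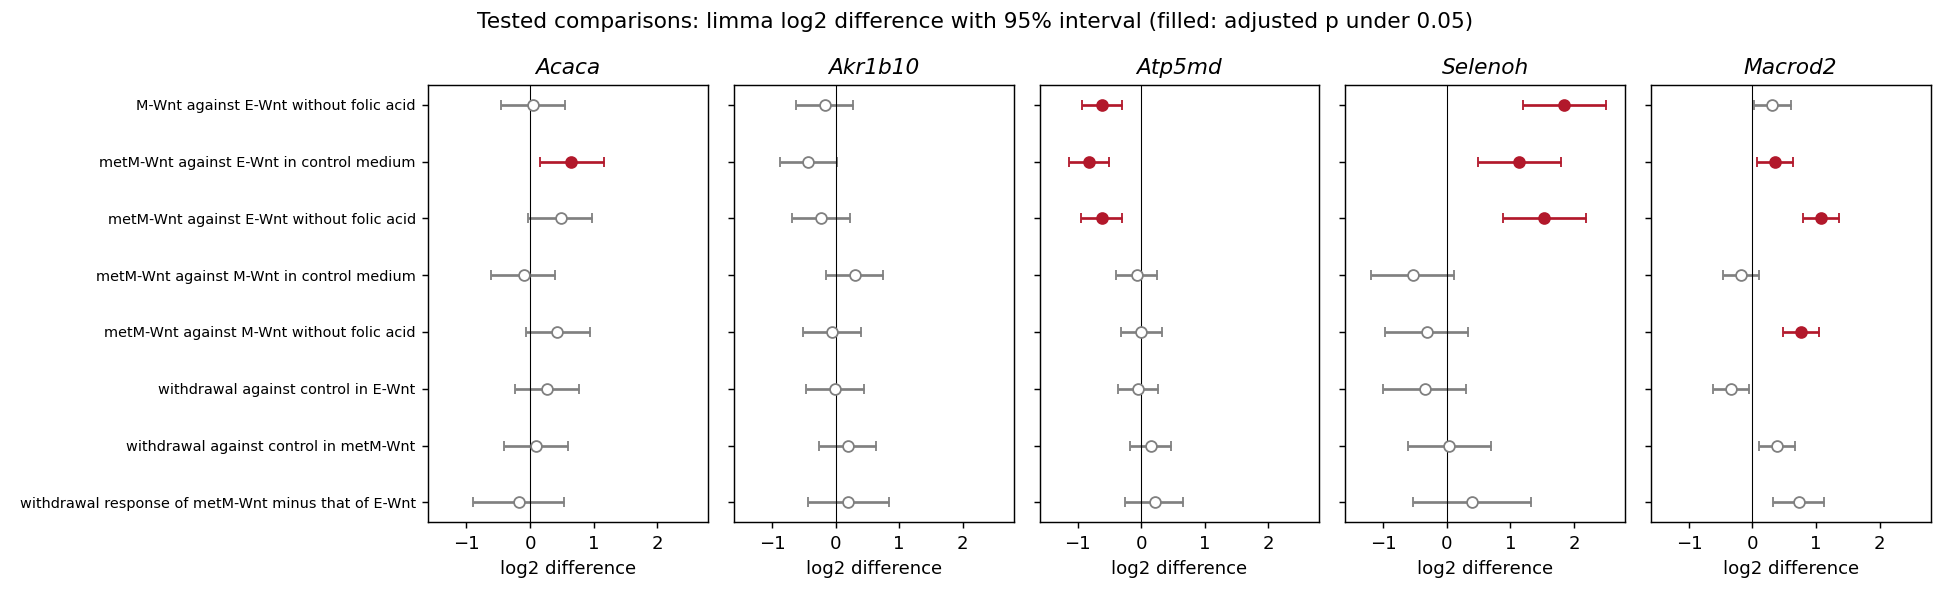
Log2 differences (x axis) with 95% intervals for the 5 genes in the 8 tested comparisons (y axis), from limma over all features. Filled points have an adjusted p below 0.05: these are 10 of the 40 points, 9 of them against E-Wnt and 1 for Macrod2 between metM-Wnt and M-Wnt without folic acid.

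The counts of genes called between lines are set here beside the shares over all features. No result is read from them, since some of these comparisons share arrays with the choice of the genes. Without folic acid 2 of the 5 were called between M-Wnt and E-Wnt, Selenoh higher and Atp5md lower, where 45.0% of all features were called. Between metM-Wnt and E-Wnt 4 of 5 were called in control medium (3 higher, 1 lower; 44.1% of all features) and 3 of 5 without folic acid (2 higher, 1 lower; 43.4%). Between metM-Wnt and M-Wnt 0 of 5 were called in control medium, with 0 at an unadjusted p under 0.05, while 9.33% of all features were called and 21.8% had an unadjusted p under 0.05. Without folic acid 1 of 5, Macrod2, was called, against 7.73%. The median differences of the 5 genes in these comparisons were 0.04, 0.35, 0.48, -0.10 and -0.00, and those of all features 0.04, 0.06, 0.03, 0.04 and -0.02.

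None of the 5 was called by limma for withdrawal in E-Wnt or in metM-Wnt, where 0.0389% and 0.404% of all features were called. In each of these, 1 of the 5, Macrod2, had an unadjusted p under 0.05, as had 8.01% of all features in E-Wnt and 13.2% in metM-Wnt. For the response of metM-Wnt minus that of E-Wnt, 0 of 5 were called against 0.0852%, again with Macrod2 alone at an unadjusted p under 0.05, where 13.1% of all features stood. In the comparisons that served to pick the genes, all 5 had arrays that did not overlap between M-Wnt and E-Wnt in control medium, where 56.4% of all features did not overlap and 45.6% were called. For withdrawal in M-Wnt 18.4% of all features were called, and the arrays of 52.8% did not overlap. Of the 5 genes, 3 did not overlap there. Nothing is read from these counts, since the genes were chosen there. In the tested line comparisons with E-Wnt, the arrays of 3 of the 5 did not overlap for M-Wnt without folic acid (51.6% of all features), 5 of 5 for metM-Wnt in control medium (50.4%) and 3 of 5 for metM-Wnt without folic acid (47.7%). Between metM-Wnt and M-Wnt these were 3 of 5 in control medium (33.3%) and 2 of 5 without folic acid (34.1%). For withdrawal they were 0 of 5 in E-Wnt (8.76%) and 2 of 5, Atp5md and Macrod2, in metM-Wnt (20.3%).

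**Figure D4:**
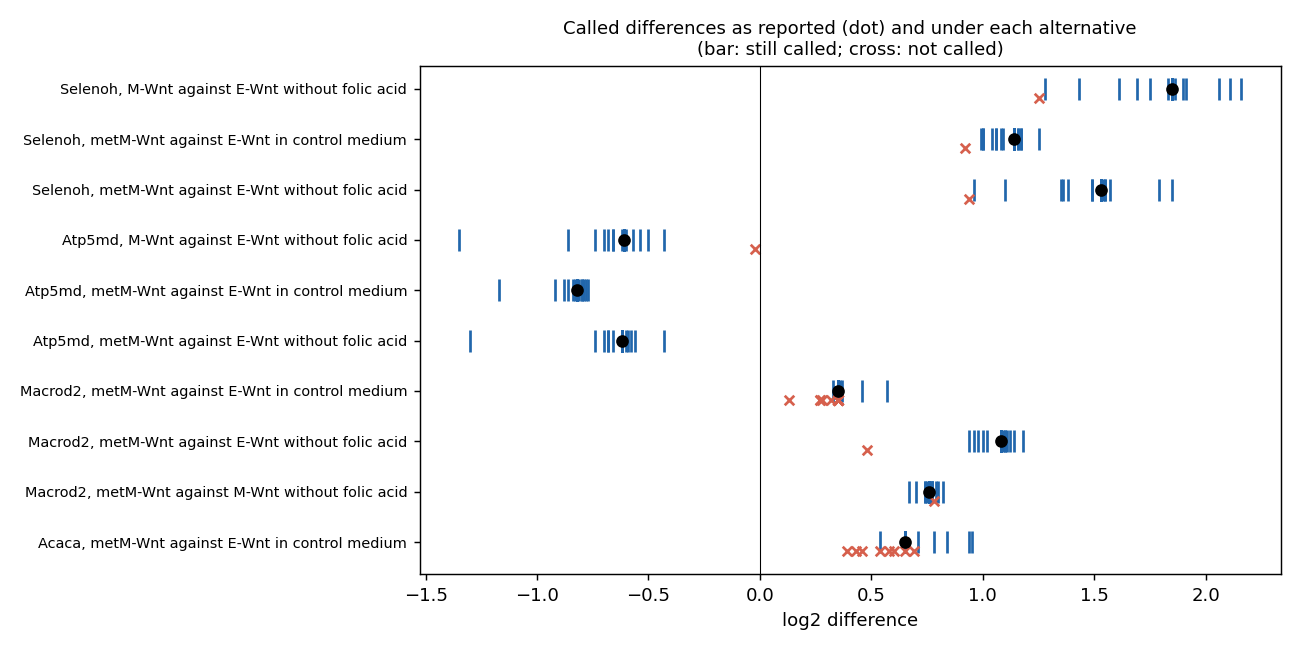
Log2 difference (x axis) of the 10 called results (y axis) as reported (dots) and under each alternative processing, design or left-out array. Bars mark alternatives under which the result was still called and crosses those under which it was not; Selenoh and Atp5md against E-Wnt lost their call in at most 1 alternative each, Macrod2 and Acaca between metM-Wnt and E-Wnt in control medium in 16 and 8.

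The 18 arrays share groups, slides and a reference and include those on which the 5 genes were chosen, so correlations between the genes follow in part from that choice. As a description, Macrod2 and Selenoh had a Pearson correlation of 0.71, Acaca and Macrod2 0.64, and Acaca and Selenoh 0.62. Atp5md ran against Selenoh (-0.71), Macrod2 (-0.62) and Acaca (-0.51), and with Akr1b10 (0.54). Among the 63 other named genes tested, those most correlated with each were Mrpl51 (0.88), Ssbp2 (0.87) and Rnf125 (0.84) for Selenoh, and Tbc1d16 (0.89), Eif2s2 (0.84) and Pate14 (0.79) for Atp5md. For Macrod2 they were Sec22b (0.87), 2810021J22Rik (0.80) and Gcsh (0.79), for Acaca Ubac1 (0.83), Slfn3 (0.77) and Pdlim5 (0.76), and for Akr1b10 Zfp950 (0.64), Gm904 (0.60) and Ezr (0.59). Akr1b10 had the lowest of these leading correlations.

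The pathways around the 5 genes could hardly be followed with the probes that were named here. Genes without a named probe may still be read by probes that were not looked up. Of 134 genes on 7 lists (fatty acid synthesis, aldo-keto reductases, ATP synthase, selenoproteins, antioxidant defence, ADP-ribose metabolism, glutaredoxins and thioredoxin folds), 6 had a named probe, and 5 of these were the genes described here. The sixth was Txndc9, a thioredoxin-domain protein, on the antioxidant defence list. Txndc9 read 0.83, 0.70 and 1.02 in E-Wnt control cells, 0.57, 0.67 and 0.77 in E-Wnt without folic acid, 0.38, 0.43 and 0.37 in M-Wnt control and 0.00, 0.04 and -0.15 in M-Wnt without folic acid. It read 0.24, 0.16 and 0.34 in metM-Wnt control and 0.26, 0.32 and 0.20 in metM-Wnt without folic acid, below all E-Wnt arrays. Against E-Wnt it was lower in M-Wnt without folic acid (-0.70, limma adjusted p = 2.3e-05) and in metM-Wnt in control medium (-0.60, limma adjusted p = 0.00012) and without folic acid (-0.41, limma adjusted p = 0.0032). The described difference of M-Wnt from E-Wnt with folic acid was -0.46 (SE 0.10). The described withdrawal difference of Txndc9 in M-Wnt was -0.43 (SE 0.10). Withdrawal was not called for it in E-Wnt (-0.18, limma adjusted p = 0.7) or metM-Wnt (0.01, limma adjusted p = 0.99). The described response of M-Wnt minus that of E-Wnt was -0.25 (SE 0.14), and that of metM-Wnt minus that of M-Wnt 0.43 (SE 0.14). For the other members of these pathways no level is given here.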

How the data were processed

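Signals were read from the deposited Agilent scanner files, which per the file headers hold background and spot intensity of both channels from Feature Extraction 10.7.3.1. The authors' deposited series table holds log10 ratios and matched each array's scanner log10 ratio within 0.005, so it served as an alternative. Background was corrected with normexp (offset 50), ratios were normalized by loess within arrays with control and outlier spots at weight 0, and each probe's 2 spots were averaged. Probes with both spots well above background in red on every array of 1 or more groups were kept (41109 probes), and probes of a named gene were averaged, leaving 41082 features. The 6 group means were fitted over 18 arrays with limma 3.58.1 in R 4.3.3 (12 residual degrees of freedom), two-sided, with Benjamini-Hochberg adjustment. Names came from the accession in the probe name through a RefSeq gene table, only for probes whose name starts with Mm_ncRNA. Of 19687 such probes with an accession, 193 matched 143 genes. The files name no genome build, so no coordinates are given.

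The genes and lists were chosen with earlier results of these data known. The genes most like each were the 3 named genes with the highest Pearson correlation over the arrays. The number of arrays limits the precision, and p-values set a difference against the spread between these arrays within groups. Folic acid is in mM in the design text and in µM in the protocols, whose unit is used. Alternatives were other background, normalization, filter, design and slide settings and leaving out each array. The fitting script was tested on simulated data.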

Additional observations from a re-analysis of the deposited data

How the results depend on the processing

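No called difference changed sign under any alternative. Without folic acid, the 2 genes called between M-Wnt and E-Wnt became 1 with median centring and 1 with slide as a fixed term, and 3 with the red channel alone, slide as a random block, array weights or without E-Wnt withdrawal array 2 or 3 (Macrod2 or Akr1b10 added). Of the 4 called between metM-Wnt and E-Wnt in control medium, 1 was left with median centring and 2 with no filter on dim probes, and leaving out 1 array gave 2 to 5. Between the same lines without folic acid, 3 became 1 with median centring and 5 with the red channel alone. Between metM-Wnt and M-Wnt in control medium, 0 became 1 (Selenoh) with array weights, 1 when only the groups compared were fitted, and 0 to 1 when 1 array was left out. Without folic acid, 1 became 2 with array weights and 0 with median centring. Array weights raised the calls over all features from 9.33% to 28.6% in control medium and from 7.73% to 29.6% without folic acid. The response of metM-Wnt minus that of E-Wnt went from 0 to 1 (Macrod2) with slide as a random block, where calls over all features went from 35 to 344 and the correlation of arrays on a slide was -0.142.

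Median centring moved the median of all features to -0.35 for M-Wnt against E-Wnt without folic acid, -0.17 and -0.40 for metM-Wnt against E-Wnt in control medium and without folic acid, and -0.25 for withdrawal in M-Wnt. Relative to those medians, Selenoh was higher by 1.60, 1.09 and 1.34 in the 3 line comparisons, Atp5md differed by -1.00, -1.00 and -0.90, and Macrod2 differed by 0.88 between metM-Wnt and E-Wnt without folic acid. The samples were not paired by replicate number in the fit. With 3 arrays per group, the following check cannot decide whether the numbers mark pairs. Over 9 pairs of a control and a withdrawal array of the same line and number, deviations from the group mean correlated from -0.65 to 0.55, with 3 above 0.1. With the replicate number as a block, Macrod2 was no longer called between metM-Wnt and E-Wnt in control medium (0.35, limma adjusted p = 0.061), and no other call of the 5 genes changed. With slide as a fixed term no metM-Wnt comparison with another line could be fitted. Dim signal limits Acaca most.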
